A study of Mus musculus with 6 samples.

Results

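Nitric oxide and arginine supply in the kidney were examined through 9 genes, chosen by symbol out of the 33696 genes in the count tables. Nos1 and Nos3 encode the neuronal and endothelial nitric oxide synthases. Gucy1a1 and Gucy1b1 encode the subunits of soluble guanylyl cyclase, the nitric oxide receptor. Ass1 and Asl encode argininosuccinate synthase and lyase, the enzymes that make arginine from citrulline. Arg2 and Gatm encode the mitochondrial arginase and the arginine:glycine amidinotransferase, which both consume arginine, and Ddah1 encodes a hydrolase that clears dimethylarginines, the natural inhibitors of the synthases. The comparison was between 3 mice given DOCA-salt and 3 sham mice, with 1 single-cell library of kidney cells from each. All were male C57BL/6 mice aged 8 to 10 weeks. The DOCA-salt mice had lost the left kidney, then carried a 50 mg pellet of deoxycorticosterone acetate (DOCA), a mineralocorticoid, implanted 1 week later, and drank water with 1% NaCl for 21 days. The sham mice had sham surgery and drank plain water. The groups therefore differed in nephrectomy, steroid and salt together, and these cannot be told apart.

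Nitric oxide synthases make nitric oxide and citrulline from arginine, with tetrahydrobiopterin as a cofactor. Nitric oxide diffuses to neighboring cells and binds soluble guanylyl cyclase, whose product, cyclic GMP, relaxes smooth muscle through a protein kinase and is broken down by phosphodiesterases. The kidney is the main source of circulating arginine: the proximal tubule takes up citrulline and converts it. In the kidney the neuronal synthase is known from the macula densa, a plaque of thick ascending limb cells beside the glomerulus that senses salt delivery, and the endothelial synthase from vessels.

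The libraries held 76774 barcodes and 93172739 to 137819127 unique molecular identifiers (UMIs) each, and 55630 cells remained after filtering and doublet removal. Levels are given as CPM, the UMIs of a gene per 1000000 UMIs of the same mouse and cell type. Of 60105 barcode sequences kept by the filters, 451 occurred in more than 1 library, and 0 pairs of these had identical counts. Values called whole-kidney are sums over all cells kept of a mouse, and are not RNA levels of the intact tissue. Sham mouse 2 stood apart from the other sham mice: its whole-kidney profile correlated with theirs at 0.966 to 0.969, against 0.99 between them. Clusters were named from marker genes, giving 21 cell types, of which 16 had at least 10 cells in every mouse and could be tested. The summed proximal tubule markers (among them Lrp2, Slc34a1, Slc13a1, Cubn, Miox and Slc27a2) stood at 11616 to 14204 CPM in the proximal tubule of the 6 mice, and the thick ascending limb markers at 21799 to 25581 CPM in that limb. A cluster of 627 proximal tubule cells came almost only from DOCA-salt mouse 2, and clusters with a median under 1000 UMIs held 8341 proximal tubule, 908 endothelial and 391 immune cells.

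By the GENCODE annotation of GRCm39, Gucy1b1 (ENSMUSG00000028005, chr3:81939312-81982022) and Gucy1a1 (ENSMUSG00000033910, chr3:81999733-82053216) lie on the minus strand with 17710 bases between them. Ass1 (ENSMUSG00000076441) spans chr2:31352181-31410862 on the plus strand with 16 exons. The cyclase subunits rose in whole kidneys and Ass1 fell in the most cell types (below), so the 250 bases before the start of their canonical transcripts are shown, read from GRCm39 5′ to 3′ in the direction of the gene. Capitals mark TGTTCT, which is AGAACA on the other strand, the core to which mineralocorticoid and glucocorticoid receptors are known to bind.
Gucy1b1 (chr3:81982007-81982256, minus strand): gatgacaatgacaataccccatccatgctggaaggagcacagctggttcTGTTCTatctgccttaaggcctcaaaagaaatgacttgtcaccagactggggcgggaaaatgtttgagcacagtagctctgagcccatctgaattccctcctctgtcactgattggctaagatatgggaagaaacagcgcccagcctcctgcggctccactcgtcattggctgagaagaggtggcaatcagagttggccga
Gucy1a1 (chr3:82053217-82053466, minus strand): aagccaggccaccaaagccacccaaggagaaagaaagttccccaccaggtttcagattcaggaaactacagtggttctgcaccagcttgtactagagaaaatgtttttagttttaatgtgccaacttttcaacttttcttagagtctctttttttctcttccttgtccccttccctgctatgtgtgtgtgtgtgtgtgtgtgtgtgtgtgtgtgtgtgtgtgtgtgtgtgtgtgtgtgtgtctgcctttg
Ass1 (chr2:31359904-31360153, plus strand): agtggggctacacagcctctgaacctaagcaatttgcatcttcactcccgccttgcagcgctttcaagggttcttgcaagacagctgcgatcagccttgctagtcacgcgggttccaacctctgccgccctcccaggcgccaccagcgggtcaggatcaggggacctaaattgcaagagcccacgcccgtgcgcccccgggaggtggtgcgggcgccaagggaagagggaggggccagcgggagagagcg
AGAACA was found on either strand in 1 of the 9 genes' windows, that of Gucy1b1, and in 14.3% of 21757 gene windows of this length. The CArG box of serum response factor was found in 0 of the 9 and in 1.4% of all windows. The stretch just before the start lay within RefSeq's promoter windows (GRCm38.p6) for Gucy1b1, Ass1, Gatm and Ddah1 but not for Gucy1a1 and Nos1, so the Gucy1a1 sequence and the count of 1 in 9 depend on the start chosen. The windows shown had 51.6% G and C for Gucy1b1, 44.8% for Gucy1a1 and 64.0% for Ass1.

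The other genes lie on chromosomes 2, 3, 5 and 12. They are Gatm (chr2:122424948-122441799, minus), Ddah1 (chr3:145464361-145600032, plus), Nos3 (chr5:24569787-24589475, plus), Nos1 (chr5:117918971-118096905, plus), Asl (chr5:130040099-130058088, minus) and Arg2 (chr12:79177524-79203075, plus). Nos3 overlaps Atg9b, and Arg2 overlaps Vti1b, on the opposite strand. Nos1 overlaps 6 predicted genes. Whether reads were counted by strand is not stated in the sources used here, so reads of such overlaps could not be assigned beyond the deposited counts.

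In whole kidneys, Gucy1a1 and Gucy1b1 rose and Nos1 and Ass1 fell in the DOCA-salt mice. Of the 19658 genes tested, 17.2% passed the threshold (adjusted p under 0.05), 11.5% as higher and 5.69% as lower, and 36.0% did not overlap between the groups. Of the 9 genes, 2 were higher and 2 lower, and these 4 did not overlap. In sums over all cells, fewer cells of a type and less RNA per cell cannot be told apart, so each gene is followed into its cell types below.

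Nos1 in all cells was 2.36, 1.66 and 2.38 CPM in the sham mice and 0.503, 0.329 and 0.645 CPM in the DOCA-salt mice. Every DOCA-salt mouse lay below every sham mouse, with a log2 change of -2.25 (SE 0.28, adjusted p = 0.00187). Ass1 was 1194, 995 and 1041 CPM in sham and 651, 545 and 464 CPM in DOCA-salt mice. The groups again did not overlap, and the log2 change was -1.07 (SE 0.16, adjusted p = 0.00409). Gucy1a1 went the other way, with 3.36, 3.44 and 3.96 CPM in sham and 13.7, 24.0 and 23.4 CPM in DOCA-salt mice, a log2 change of 2.38 (SE 0.21, adjusted p = 0.000497). Gucy1b1 was 2.79, 3.15 and 3.63 CPM in sham and 6.07, 8.02 and 8.47 CPM in DOCA-salt mice (log2 change 1.12, SE 0.17, adjusted p = 0.00425). For both subunits the lowest DOCA-salt mouse stood above the highest sham mouse.

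**Figure D1:**
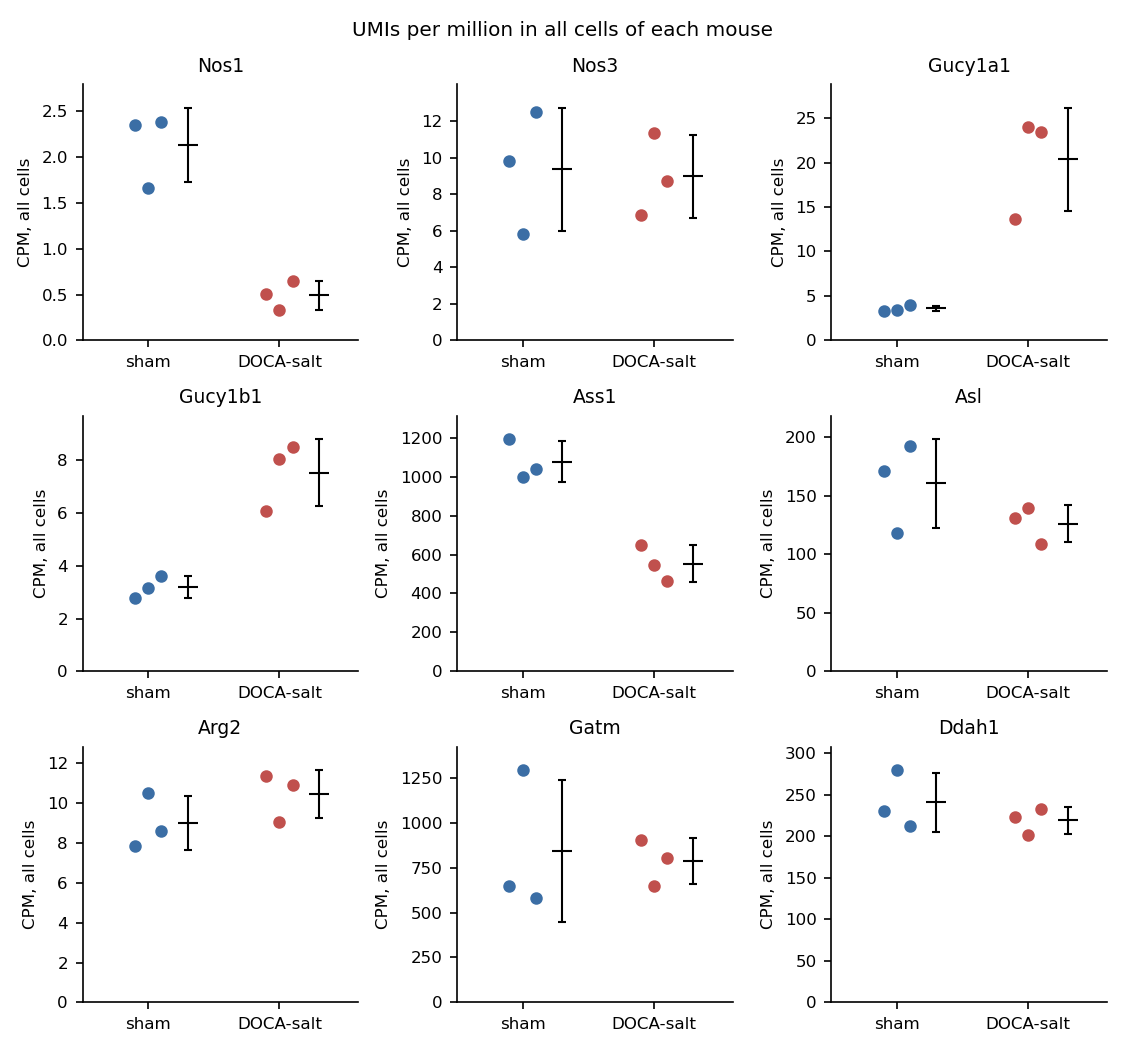
Level (CPM) of each of the 9 genes over all cells of a mouse, for the 3 sham (blue) and 3 DOCA-salt mice (red). The black bars are the mean ± SD of the 3 mice. Nos1 and Ass1 are lower and Gucy1a1 and Gucy1b1 higher in all 3 DOCA-salt mice, while the groups overlap for the other 5 genes.

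The other 5 genes did not pass the test in whole kidneys. Asl ran from 118 to 192 CPM in sham and from 108 to 139 CPM in DOCA-salt mice (log2 change -0.47, adjusted p = 0.14). Sham mouse 2 was the lowest sham mouse at 118 CPM, and without it Asl was lower in DOCA-salt mice (-0.66, adjusted p = 0.011). Gatm was 650, 1295 and 583 CPM in sham and 904, 650 and 801 CPM in DOCA-salt mice, so that sham mouse 2 alone set a sham SD of 393 CPM (log2 change -0.21, adjusted p = 0.667). Nos3 was 5.81 to 12.5 CPM in sham and 6.84 to 11.4 CPM in DOCA-salt mice (-0.19, adjusted p = 0.696). Arg2 (0.10, adjusted p = 0.686) and Ddah1 (-0.25, adjusted p = 0.206) also overlapped between the groups.

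In the sham kidney Nos1 was highest in the thick ascending limb, at 25.4 ± 2.46 CPM (SD, n = 3), followed by the endothelium at 4.76 ± 1.04 CPM, and the ranges of these types overlapped neither each other nor the next type. Nos3 was an endothelial gene, at 179 ± 47.1 CPM there against at most 2.58 CPM in any other type, and those low levels overlapped. Gucy1a1 and Gucy1b1 were highest in smooth muscle or pericytes, at 217 ± 32.7 and 234 ± 37.3 CPM, and next at 6.80 ± 1.01 CPM in the endothelium for Gucy1a1 and 7.16 ± 0.358 CPM in the parietal-like epithelium for Gucy1b1. Only the types with at least 10 cells in every sham mouse enter this order, which leaves out fibroblasts (6 to 24 cells), neutrophils, urothelium and podocytes.

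The arginine genes were led by the proximal tubule. There Ass1 stood at 1584 ± 130 CPM, Asl at 226 ± 59.5 CPM, Gatm at 1235 ± 550 CPM and Ddah1 at 331 ± 38.4 CPM. For Ass1, Asl and Gatm the proximal tubule did not overlap the next type, the injured tubule. Ddah1 differed in that the proximal tubule, the parietal-like epithelium (286 ± 32.3 CPM) and the injured tubule (272 ± 42.2 CPM) overlapped in turn, all above the thin limb at 127 ± 15.3 CPM. Among the ordered types Arg2 was highest in the thin limb at 118 ± 25.2 CPM, above the overlapping parietal-like epithelium (35.6 ± 10.4 CPM), monocytes (34.7 ± 24.8 CPM) and principal cells (28.9 ± 5.22 CPM). Outside the order, neutrophils, of which a mouse gave 3 to 18, held 562 to 1164 CPM of Arg2 in sham and 486 to 939 CPM in DOCA-salt mice, and the urothelium, with 1 to 10 cells in a sham mouse, 91.8 to 477 and 104 to 159 CPM.

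**Figure D2:**
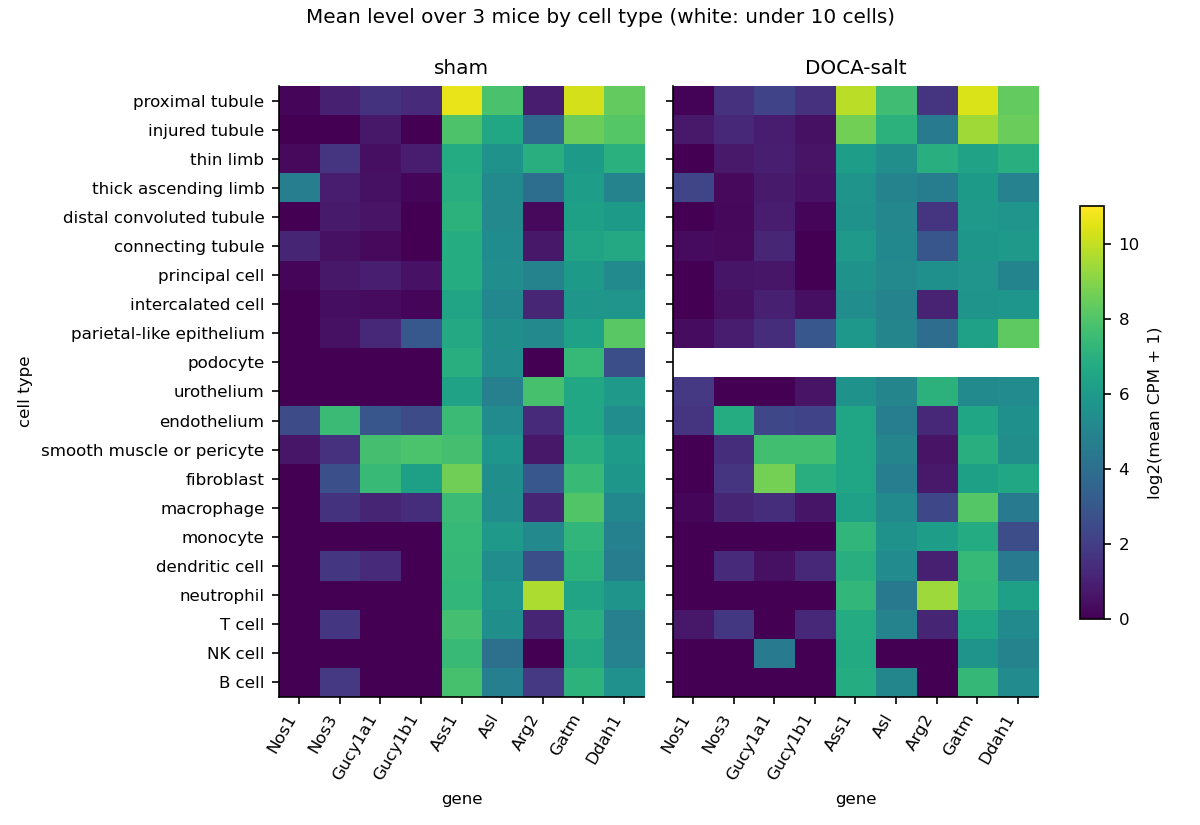
Mean level of each gene over the 3 mice of a group by cell type, as log2(mean CPM + 1), in sham (left) and DOCA-salt mice (right). White rows are types with under 10 cells in a group. Nos1 is brightest in the thick ascending limb of sham mice, Nos3 in the endothelium, the cyclase subunits in smooth muscle, pericytes and fibroblasts, and Ass1 and Gatm in the proximal tubule.

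Within the 16 types, 75 tests of a gene in a type could be made, of which 3 were higher and 13 lower in the DOCA-salt mice. Over all genes of the same fits, 5.91% passed. Ass1 made up 9 of the 13 falls and 1 of the 3 rises. The other falls were Nos1 in the thick ascending limb, Arg2 in the parietal-like epithelium, and Gatm and Ddah1 in the connecting tubule, and the other rises were Arg2 in the proximal tubule and Gatm in the injured tubule.

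Nos1 fell in the thick ascending limb. It was 28.1, 24.8 and 23.3 CPM in the limb cells of the sham mice and 4.27, 2.25 and 5.16 CPM in those of the DOCA-salt mice. The groups lay far apart, with a log2 change of -2.76 (SE 0.24, adjusted p = 0.000207), in a fit where 1.63% of 12167 genes passed, 0.871% as lower, and 2 of the 6 genes tested did (Nos1 and Ass1). Across 16 alternative settings the change ran from -3.53 to -2.47 and passed in all 16. Most of the Nos1 UMIs came from a small cluster in which 5 of the 6 macula densa markers were detected (of Pappa2, Ptgs2, Robo2, Avpr1a, Oxtr and Bmp3). Oxtr was at 0 in the limb of every mouse but DOCA-salt mouse 3 (0.258 CPM). The cluster held 172, 84 and 125 Nos1 UMIs in the sham mice and 18, 12 and 13 in the DOCA-salt mice, whereas all other limb cells together held 12, 6 and 4 against 8, 2 and 7. The remaining limb cells thus overlapped between the groups, at 1.91, 1.73 and 0.756 CPM in sham and 1.33, 0.323 and 1.83 CPM in DOCA-salt mice.

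**Figure D3:**
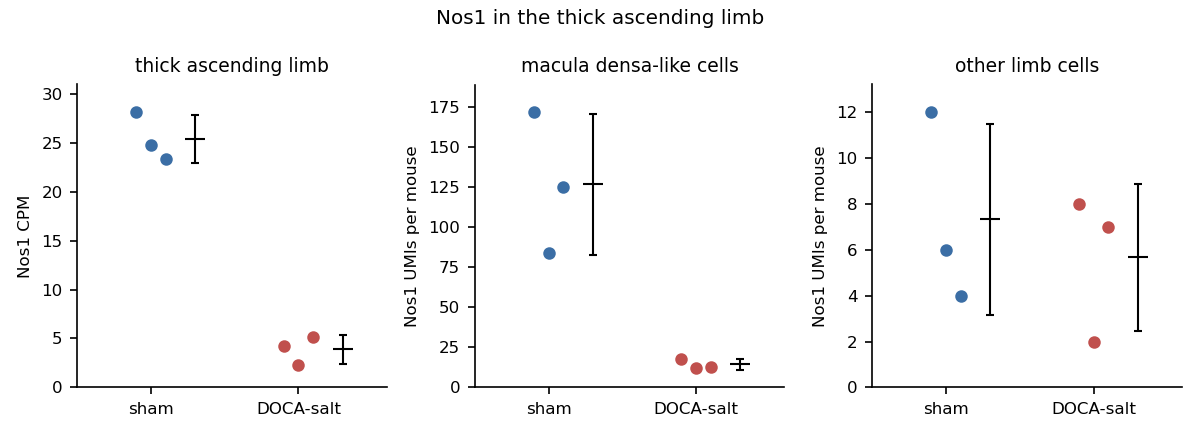
Nos1 in the thick ascending limb of each mouse: CPM over the whole limb (left), and UMIs per mouse in the macula densa-like cluster (middle) and in the other limb cells (right). Black bars are the mean ± SD of 3 mice. The UMIs of the macula densa-like cluster are 84 to 172 in sham and 12 to 18 in DOCA-salt mice, while those of the other limb cells overlap.

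The macula densa-like cluster had 22, 19 and 21 cells in the sham mice and 4, 1 and 3 in the DOCA-salt mice. Inside it Nos1 was 673, 527 and 534 CPM in sham and 305, 493 and 253 CPM in DOCA-salt mice, given as a description because the cluster was found from the same counts. The markers that define it were lower in the limb as a whole: their sum was 171, 179 and 156 CPM in sham and 38.6, 19.6 and 47.5 CPM in DOCA-salt mice, and 3 of the 4 that could be tested fell. These were Pappa2, a protease that cleaves binding proteins of insulin-like growth factors (log2 change -4.22), Robo2, a guidance receptor (-2.24), and Bmp3, a secreted member of the TGF-beta family (-2.04). The general limb markers overlapped between the groups and 0 of 5 passed. Since the cluster rests on genes that differed, its size is not a count of macula densa cells, and without doublet removal it held 41, 32 and 30 cells in sham and 22, 20 and 17 in DOCA-salt mice. Fewer such cells and less of these RNAs per cell cannot be told apart.

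In the endothelium, the other source of Nos1, the level was 3.69, 5.77 and 4.81 CPM in sham and 3.57, 1.15 and 1.92 CPM in DOCA-salt mice (log2 change -1.15, SE 0.41, adjusted p = 0.127). DOCA-salt mouse 1 lay just under the lowest sham mouse. The Sox17-positive endothelium, which carried the arterial markers, had 4.78, 10.1 and 7.35 against 9.47, 3.63 and 7.35 CPM (-0.14, adjusted p = 0.943). The change in the endothelium was less negative than that in the limb by 1.65 (SE 0.41, adjusted p = 0.0159), in a comparison where 6.01% of genes passed. Without sham mouse 1 (1.37, adjusted p = 0.0989) or DOCA-salt mouse 1 (1.23, adjusted p = 0.182) this difference missed the threshold.

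Nos3 in the endothelium was 201, 125 and 211 CPM in the sham mice and 106, 128 and 95.6 CPM in the DOCA-salt mice. Sham mouse 2 and DOCA-salt mouse 2 lay side by side, and the other mice were well apart. The log2 change of -0.73 (SE 0.20, adjusted p = 0.0517) missed the threshold, in a fit of 12771 genes of which 7.92% passed. Without sham mouse 2 it passed (-0.91, adjusted p = 0.000988), as it did with DESeq2 (-0.70, adjusted p = 0.0183) and in 6 of 16 alternatives in all. The endothelium itself had another makeup in the DOCA-salt mice. Its capillary markers (Plvap, Igfbp5 and Nr2f2) summed to 1522 to 2642 CPM in sham and 3071 to 3589 CPM in DOCA-salt mice, and its arterial markers to 983 to 1129 against 684 to 1001 CPM. Its glomerular markers summed to 675 to 942 against 532 to 630 CPM, with 1 of 3 lower.

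Nos3 was highest in the Sox17-positive endothelium, at 283, 182 and 281 CPM in sham and 176, 241 and 182 CPM in DOCA-salt mice (log2 change -0.35, adjusted p = 0.556). These groups overlapped. In the Plvap-positive endothelium it was 78.0, 38.8 and 72.4 against 58.7, 83.0 and 68.3 CPM (0.14, 95% interval -0.30 to 0.57, adjusted p = 0.78), and in the Ehd3-positive endothelium, with 11 to 37 cells a mouse, 71.9, 34.6 and 94.2 against 19.6, 77.2 and 41.2 CPM (-0.40, adjusted p = 0.911). A sham mouse gave 197 to 245 Plvap-positive and 184 to 238 Sox17-positive cells, a DOCA-salt mouse 331 to 461 and 132 to 141. The part of this makeup in the pooled Nos3 value was not tested.

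The cyclase subunits rose with the fibroblasts. Fibroblasts numbered 24, 6 and 9 in the sham mice and 217, 297 and 306 in the DOCA-salt mice, and the 6 fibroblast markers (Col1a1, Col1a2, Dcn, Pdgfra, Lum and Col3a1), all higher in whole kidneys, summed to 48.3, 9.52 and 19.0 CPM against 323, 470 and 553 CPM. Of all Gucy1a1 UMIs, fibroblasts held 4.02% (32 of 796) in sham and 80.4% (4343 of 5402) in DOCA-salt mice. Of the Gucy1b1 UMIs they held 2.56% (18 of 702) and 60.7% (1207 of 1987). When fibroblasts were left out of the sums, a choice made after seeing the data, Gucy1a1 changed by 0.15 (adjusted p = 0.606) and Gucy1b1 by -0.13 (adjusted p = 0.647), so that neither passed and the sign of Gucy1b1 turned.

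**Figure D4:**
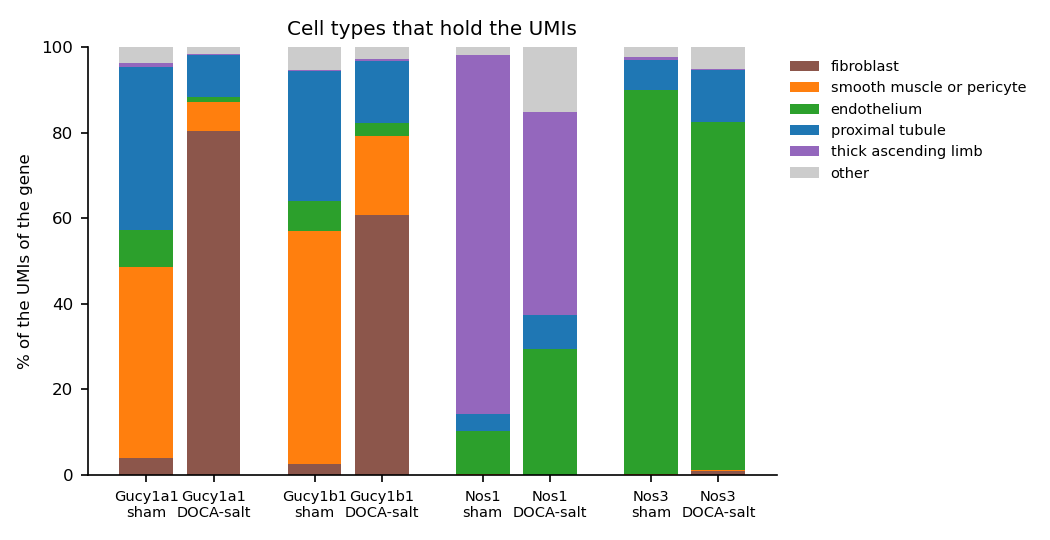
Share of each gene's UMIs (percent, summed over the 3 mice of a group) held by 5 cell types and by all others, for the cyclase subunits and the synthases. Fibroblasts hold 4.02% of the Gucy1a1 UMIs in sham and 80.4% in DOCA-salt mice, the thick ascending limb 83.8% and 47.6% of those of Nos1, and the endothelium 89.7% and 81.4% of those of Nos3.

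Inside the fibroblasts Gucy1a1 was 59.4, 352 and 98.8 CPM in sham and 387, 474 and 397 CPM in DOCA-salt mice, and Gucy1b1 was 59.4, 82.9 and 82.4 against 125, 118 and 115 CPM. The DOCA-salt mice were the higher ones for both, but the sham values rest on 4 to 17 UMIs per mouse and gene, and no test was made with under 10 cells in a mouse. In smooth muscle or pericytes, the main site in sham, Gucy1a1 was 211, 188 and 252 CPM in sham and 200, 200 and 205 CPM in DOCA-salt mice (log2 change -0.15, SE 0.18, adjusted p = 0.783). Gucy1b1 there was 197, 234 and 272 against 200, 212 and 201 CPM (-0.24, SE 0.18, adjusted p = 0.629). Both overlapped, with 95% intervals of -0.50 to 0.19 for Gucy1a1 and -0.59 to 0.10 for Gucy1b1.

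The proximal tubule held 38.2% of the sham Gucy1a1 UMIs at a low level of 2.31, 1.82 and 2.15 CPM, against 2.61, 5.21 and 3.21 CPM in DOCA-salt mice (log2 change 0.73, adjusted p = 0.148). The change there exceeded that in smooth muscle or pericytes by 0.83 (SE 0.23, adjusted p = 0.0707), which missed the threshold. The highest value was that of DOCA-salt mouse 2, which gave 611 of the 627 cells of a proximal tubule cluster. Among proximal tubule cells this cluster was led by Mgp, Bgn and Sparc. The change in the proximal tubule ran from 0.41 to 0.91 across 16 alternatives, among them the fit without this cluster, and passed in 0. The part of this cluster in the difference from smooth muscle or pericytes was not tested. Between segments, the S2-like tubule, at 0.341, 0.142 and 0.720 against 1.08, 1.14 and 0.896 CPM, changed by 1.23 more than the S1-like tubule (SE 0.41, adjusted p = 0.0404), where Gucy1a1 was 3.58 to 4.63 CPM in sham and 4.33 to 5.02 CPM in DOCA-salt mice. In that comparison 18.7% of genes passed, and Gucy1a1 missed the threshold without sham mouse 1, sham mouse 2, DOCA-salt mouse 1 or DOCA-salt mouse 2 (0.96 to 1.24, adjusted p = 0.0964 to 0.197).

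In the Ehd3-positive endothelium, which carried glomerular markers, Gucy1a1 fell from 51.9, 99.5 and 60.6 CPM to 0, 12.2 and 8.24 CPM (log2 change -2.99, SE 0.61, adjusted p = 0.0406). It was the only gene of the 4 tested there to pass, in a fit where 0.391% of genes did, 0.304% as lower. These sums rest on 25, 31 and 37 sham and 14, 24 and 11 DOCA-salt cells. The summed smooth muscle markers in the same cells were 216, 238 and 114 CPM in sham and 39.3, 44.7 and 223 CPM in DOCA-salt mice. The podocyte markers were 75.9, 51.9 and 972 against 19.6, 89.4 and 33.0 CPM. The glomerular markers were 4709 to 6357 against 7213 to 8678 CPM, without overlap, and 0 of 3 passed. Their part in the fall was not tested. Without sham mouse 2, DOCA-salt mouse 1 or DOCA-salt mouse 2 the fall missed the threshold (-3.82 to -2.66, adjusted p = 0.0949 to 0.22), as it did with DESeq2 (-3.14, adjusted p = 0.363).

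Ass1 fell in the proximal tubule, where 94.2% of its sham UMIs lay. It was 1695, 1440 and 1616 CPM in the sham mice and 1060, 922 and 827 CPM in the DOCA-salt mice, with no overlap (log2 change -0.83, SE 0.14, adjusted p = 0.0267). In this fit 4.11% of 16339 genes passed, 1.29% as lower and 2.83% as higher, and of the 8 genes tested Ass1 was lower and Arg2 higher. Without sham mouse 1, sham mouse 3, DOCA-salt mouse 2 or DOCA-salt mouse 3, Ass1 missed the threshold (-0.81 to -0.75, adjusted p = 0.06 to 0.123), with its direction kept. The proximal tubule markers themselves overlapped between the groups, and 0 of 7 passed there. The injured tubule markers in the same cells rose, from 51.4 to 58.7 CPM in sham to 92.9 to 149 CPM in DOCA-salt mice. In the S2-like tubule they were 53.3 to 64.5 against 108 to 167 CPM, with 5 of 5 higher. In the S1-like tubule 5 of 6 were higher. The part of this rise in the Ass1 values was not tested.

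In the S2-like tubule Ass1 was 1535, 1271 and 1422 CPM in sham and 856, 715 and 652 CPM in DOCA-salt mice (log2 change -0.99, SE 0.16, adjusted p = 0.00516, against 12.9% of genes passing, 5.03% as lower). In the S1-like tubule it was 1645, 1463 and 1612 against 1165, 1111 and 897 CPM, which did not overlap but missed the threshold (-0.61, SE 0.15, adjusted p = 0.0572), though it passed in 3 of 10 alternatives, DESeq2 among them (adjusted p = 0.00091). The change was more negative in the S2-like than in the S1-like tubule (S2-like minus S1-like, -0.38, SE 0.09, adjusted p = 0.00743), which missed the threshold without sham mouse 1 or DOCA-salt mouse 2 (-0.34 and -0.28, adjusted p = 0.0654 and 0.0553). In the S3-like tubule, with 11 to 79 cells a mouse, Ass1 was 382, 264 and 247 CPM in sham and 339, 274 and 257 CPM in DOCA-salt mice (-0.16, adjusted p = 0.918).

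Asl, the partner enzyme, was 232, 164 and 283 CPM in the proximal tubule of sham mice and 199, 220 and 176 CPM in that of DOCA-salt mice (log2 change -0.27, 95% interval -0.66 to 0.12, adjusted p = 0.45). Sham mouse 2 was again the lowest, and the groups overlapped. With all mice it did not pass in the other tested broad types, except in the endothelium when low counts were not filtered (-0.59, adjusted p = 0.0106). Without sham mouse 2 it was lower in the connecting tubule (-0.71, adjusted p = 0.0347), distal convoluted tubule (-0.65, 0.0444), endothelium (-0.86, 0.00631), smooth muscle or pericytes (-1.24, 0.0138) and thick ascending limb (-0.59, 0.0219). In each of these types sham mouse 2 also had the lowest summed proximal tubule markers of the sham mice. In the distal convoluted tubule they were 539 CPM in sham mouse 2 against 1161 and 1306 CPM in the others. The part of proximal tubule RNA in these Asl values was not tested. Asl was higher in the S1-like tubule, at 239 to 396 CPM in sham, than in the S2-like tubule at 82.4 to 157 CPM, and did not pass in either (-0.29 and -0.25). Without sham mouse 2 it was lower in the S2-like tubule (-0.48, adjusted p = 0.0307).

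Outside the proximal tubule Ass1 fell in 8 further types. The distal convoluted tubule had the largest fitted fall, from 150, 59.9 and 188 to 50.1, 43.4 and 51.2 CPM (log2 change -1.66, adjusted p = 0.000638, in a fit where 7.43% of genes passed, 2.85% as lower). Macrophages (-1.37, with 5.51% of genes passing and 2.58% as lower), smooth muscle or pericytes (-1.33, with 2.05% and 1.01%) and the thick ascending limb (-1.19) followed. The macrophages of the groups lay in different clusters: that led by Mmp13 and Ifnb1 had 99, 66 and 103 cells in sham and 8, 7 and 18 in DOCA-salt mice, and that led by Tmx4 and Adam22 had 7, 21 and 4 against 148, 144 and 204. So did the cells of the thick ascending limb: the cluster led by Robo3 and Gm12326 had 251, 49 and 270 cells in sham and 13, 8 and 25 in DOCA-salt mice, and that led by Cacnb2 and Syt2 had 12, 67 and 3 against 197, 182 and 154. Then came principal cells (-1.11, with 7.18% and 3.2%), the connecting tubule (-1.10, with 23.6% and 11.6%), the endothelium (-1.08, with 7.92% and 3.52%) and intercalated cells (-1.03, with 6.57% and 3.15%). Leaving out sham mouse 1, sham mouse 3, DOCA-salt mouse 1 or DOCA-salt mouse 3 brought the adjusted p above the threshold in the thick ascending limb (-1.32 to -0.94, up to 0.18), principal cells (-1.19 to -0.81, up to 0.119) and intercalated cells (-1.05 to -0.86, up to 0.104), and in the thick ascending limb and principal cells DOCA-salt mouse 2 did so too. With clusters at resolution 2 Ass1 missed the threshold in the endothelium (-0.55, adjusted p = 0.144) and the thick ascending limb (-1.04, adjusted p = 0.0781). The limb without its macula densa-like cells had lower Ass1 too (-1.22, adjusted p = 0.0309, with 1.3% of genes passing and 0.604% as lower), past the threshold in 4 of 10 alternatives. Among intercalated cells, those of type A had lower Ass1 (-1.08, adjusted p = 0.0417, with 1.59% of genes passing and 0.782% as lower), past the threshold in 4 of 10 alternatives, and the pendrin-positive cells had a change of -1.13 (adjusted p = 0.0518), also past it in 4 of 10. Here too the groups lay in different clusters. A type A cluster led by Nkain3 and Adra1a had 37, 19 and 62 cells in sham and 2, 1 and 3 in DOCA-salt mice, and another, led by Calcr and Cyp3a13, had 13, 13 and 6 against 67, 65 and 89. A pendrin-positive cluster led by Car15 and Cacna2d1 had 76, 58 and 95 against 1, 3 and 0, and another, led by Syt7 and Pla2g7, had 4, 3 and 1 against 70, 52 and 69.

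The Ass1 level outside the proximal tubule stood close to the share of proximal tubule markers found in the same cells. Over the 14 tested types other than the proximal and injured tubule, sham Ass1 was 5.31% to 14.2% of its proximal tubule level, and the summed proximal tubule markers were 5.15% to 13.0% of theirs. Both were lowest in intercalated cells and highest in B cells. In the DOCA-salt mice Ass1 was 4.37% to 16.2% and the markers 3.90% to 8.52%. Of the markers, 5 of 7 in the distal convoluted and the connecting tubule, 4 of 7 in macrophages and 3 of 6 in smooth muscle or pericytes were lower, and 0 of 7 passed in the endothelium, thick ascending limb, principal and intercalated cells, with medians of -0.49 to -0.65. The part of proximal tubule RNA in these Ass1 values was not tested.

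**Figure D5:**
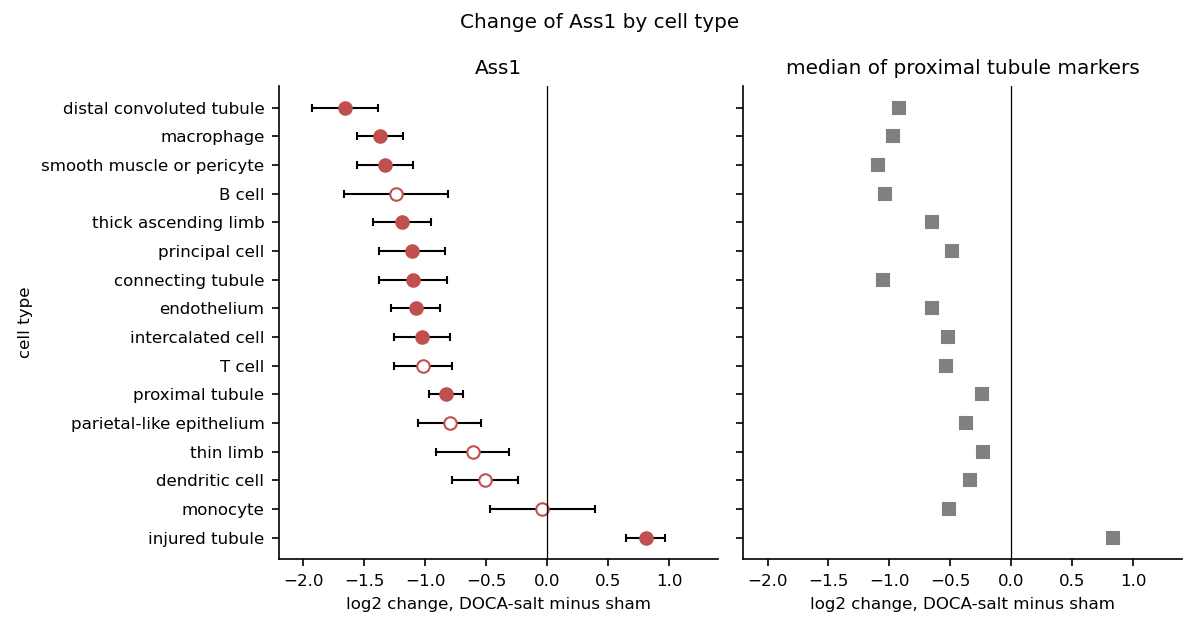
Left, log2 change of Ass1 (DOCA-salt minus sham) ± SE in each of the 16 tested cell types, filled where the adjusted p is under 0.05. Right, median log2 change of the proximal tubule markers in the same cells. The injured tubule is to the right of 0 in both panels and the proximal tubule markers are below 0 in all other types.

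In the Plvap-positive endothelium 3 of the 5 genes tested fell, in a fit where 7.98% of genes passed, 4.14% as lower. Ass1 was 199, 153 and 260 CPM in sham and 59.2, 50.5 and 66.7 CPM in DOCA-salt mice (log2 change -1.81, adjusted p = 0.00022). Asl (-1.14, adjusted p = 0.00994) and Gatm (-0.94, adjusted p = 0.0439) fell as well. Different clusters held these cells in the groups. The cluster led by Npr3 and Ada had 185, 5 and 185 cells in sham and 7, 18 and 20 in DOCA-salt mice, and that led by Fabp5 and Apln had 15, 25 and 3 against 173, 324 and 263. In the same cells 5 of the 7 proximal tubule markers fell, and their sum went from 1438, 893 and 1884 CPM to 464, 493 and 642 CPM. The Ass1 and Asl falls passed in all 10 alternatives. Gatm missed the threshold without sham mouse 2, sham mouse 3, DOCA-salt mouse 1 or DOCA-salt mouse 2 (-0.91 to -0.69, adjusted p = 0.0857 to 0.133), and with DESeq2 (-0.92, adjusted p = 0.0539). In the Sox17-positive endothelium Ass1 fell by 0.95 on the log2 scale (adjusted p = 0.0373, with 0.615% of genes passing, 0.161% as lower), and it missed the threshold without any single mouse other than sham mouse 2 (-1.01 to -0.78, adjusted p = 0.08 to 0.187). These cells included a cluster led by the cycling genes Ube2c and Mki67, with 0, 0 and 2 cells in sham and 7, 14 and 12 in DOCA-salt mice, whose part in this value was not tested.

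The injured tubule, named from Havcr1, Krt20, Vcam1, Dcdc2a, Sema5a and Lcn2, was the exception. It grew from 13, 27 and 44 cells to 198, 221 and 273 cells. There Ass1 rose from 257, 244 and 218 CPM to 460, 377 and 390 CPM (log2 change 0.81, SE 0.16, adjusted p = 0.00322), with no overlap and with all 14 alternatives past the threshold. Gatm rose from 232, 582 and 245 CPM to 887, 486 and 720 CPM (0.98, adjusted p = 0.0378), although DOCA-salt mouse 2 stood below sham mouse 2. In that fit 10.2% of 11145 genes passed, 3.66% as higher, and 2 of the 5 genes tested were higher. Gatm missed the threshold without sham mouse 1, sham mouse 3, DOCA-salt mouse 1 or DOCA-salt mouse 3 (0.78 to 0.97, adjusted p = 0.0783 to 0.186), and with DESeq2 (1.02, adjusted p = 0.0909). Ddah1 (281, 309 and 226 against 355, 324 and 396 CPM) and Arg2 (9.68, 12.0 and 15.4 against 21.2, 26.4 and 17.6 CPM) did not overlap but missed the threshold, with adjusted p = 0.124 and 0.249.

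The proximal tubule markers rose in the same cells, 6 of 7 with a median of 0.83, and their sum went from 4109, 4486 and 4922 CPM to 7158, 8289 and 7873 CPM. The sum was 33.9% of that in the proximal tubule in sham and 64.7% in DOCA-salt mice, and Ass1 stood at 15.1% and 43.7%. The median mitochondrial share of the injured tubule cells rose as well, from 7.65%, 7.10% and 10.8% to 13.0%, 12.9% and 12.8%. The part of these shifts in the Ass1 and Gatm values was not tested. Compared with the proximal tubule of the same mice, the change in the injured tubule was higher by 1.74 for Ass1 (adjusted p = 2.14e-07), 1.07 for Gatm (3.75e-05), 0.77 for Asl (0.00776) and 0.65 for Ddah1 (0.00151), in a comparison chosen after seeing the data and where 12.7% of genes passed. For Arg2 the difference was -0.39 (adjusted p = 0.653). The Asl difference missed the threshold without sham mouse 3 (0.83, adjusted p = 0.0601), while those of Ass1, Gatm and Ddah1 passed in all 8 alternatives, at 1.64 to 1.85, 0.96 to 1.19 and 0.54 to 0.71.

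Arg2 moved differently from place to place. In the thin limb, its main site, it was 104, 148 and 104 CPM in sham and 132, 82.5 and 145 CPM in DOCA-salt mice, with full overlap (log2 change 0.03, 95% interval -0.36 to 0.43, adjusted p = 0.98). In the thick ascending limb it was 11.9, 18.4 and 13.4 against 27.1, 13.0 and 32.5 CPM (0.73, adjusted p = 0.286), where DOCA-salt mouse 2 stayed within the sham range and the limb cells of the groups lay in different clusters, as given for Ass1. It passed in 3 of 16 alternatives. These were without sham mouse 2 (0.86, adjusted p = 0.0492), without DOCA-salt mouse 2 (1.04, 0.0338) and with no filter on low counts (0.73, 0.00345). The change in the thick ascending limb exceeded that in the thin limb by 0.64 (SE 0.16, adjusted p = 0.0239, with 2.74% of genes passing). In both limbs mouse 2 of the DOCA-salt group was the lowest of its group, and the difference missed the threshold without sham mouse 1, sham mouse 2, DOCA-salt mouse 1 or DOCA-salt mouse 3 (0.55 to 0.66, adjusted p = 0.0665 to 0.128).

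In the proximal tubule Arg2 was near the floor, at 0.881, 0.627 and 1.02 CPM in sham, and rose to 2.08, 2.73 and 1.71 CPM (log2 change 1.29, SE 0.28, adjusted p = 0.0479). The groups did not overlap. Leaving out any 1 mouse moved the adjusted p above the threshold, to between 0.06 and 0.153 (log2 change 1.11 to 1.47). The rise was not found in the named segments: 0.37 in the S1-like, 0.49 in the S2-like and 0.41 in the S3-like tubule, with adjusted p = 0.781, 0.392 and 0.829. Arg2 stood at 27.9 to 72.0 CPM in the S3-like tubule of sham mice, of which a sham mouse gave 11 to 23 cells and a DOCA-salt mouse 44 to 79, and at under 1 CPM in the S1-like and S2-like tubule of sham mice. The summed S3 markers in the proximal tubule were 575 to 675 CPM in sham and 340 to 497 CPM in DOCA-salt mice. Of these markers 1 of 5 was higher and 0 lower. The injured tubule markers in the proximal tubule summed to 51.4 to 58.7 CPM in sham and 92.9 to 149 CPM in DOCA-salt mice, 4 of 6 higher. The part of these cells in the Arg2 value was not tested.

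Arg2 fell in the parietal-like epithelium, from 27.1, 47.1 and 32.4 CPM to 9.12, 11.3 and 22.1 CPM (log2 change -1.36, SE 0.34, adjusted p = 0.0422, with 2.72% of 9726 genes passing, 1.31% as lower, and 1 of the 5 genes tested). The groups did not overlap. This call was not steady: without doublet removal the value was 0.37 (adjusted p = 0.341), with clusters at resolution 2 it was 0.09 (adjusted p = 0.831), with DESeq2 it missed the threshold at -1.35 (adjusted p = 0.113), and without any mouse other than DOCA-salt mouse 3 it missed the threshold (-1.51 to -1.10, adjusted p = 0.0601 to 0.165). In principal cells Arg2 was 24.6, 34.7 and 27.5 against 48.9, 33.9 and 50.8 CPM (0.67, adjusted p = 0.0707). It passed without sham mouse 2 (0.81, adjusted p = 0.0233) or DOCA-salt mouse 2 (0.83, adjusted p = 0.0374). As a share of all Arg2 UMIs, the thin limb held 60.8% in sham and 33.3% in DOCA-salt mice, while the injured tubule went from 0.756% to 11.8%.

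Gatm in the proximal tubule was 926, 1870 and 908 CPM in sham and 1453, 1094 and 1430 CPM in DOCA-salt mice (log2 change 0.03, 95% interval -0.55 to 0.61, adjusted p = 0.961). Sham mouse 2 stood above all other mice. Its change differed between segments: Gatm was 309, 675 and 296 against 799, 572 and 743 CPM in the S2-like tubule (0.67, adjusted p = 0.151) and 1693, 2980 and 1538 against 2162, 1580 and 1946 CPM in the S1-like tubule (-0.17, adjusted p = 0.803), a difference of 0.87 (SE 0.09, adjusted p = 3.41e-06). Sham mouse 2 was the highest sham mouse in both segments, and leaving out any 1 mouse left this difference past the threshold, with adjusted p up to 9.91e-05. Without sham mouse 2 the rise in the S2-like tubule passed as well (1.15, adjusted p = 0.00166). In macrophages, whose sham level came after the proximal and injured tubule, Gatm was 194, 331 and 246 against 267, 257 and 304 CPM (-0.00, adjusted p = 0.999).

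Ddah1 in the proximal tubule was 310, 375 and 308 CPM in sham and 322, 300 and 358 CPM in DOCA-salt mice (log2 change -0.09, 95% interval -0.35 to 0.16, adjusted p = 0.697), with overlap. In the parietal-like epithelium it was 286, 318 and 254 against 310, 280 and 341 CPM (0.09, adjusted p = 0.858), and in the thin limb 111, 142 and 127 against 121, 105 and 141 CPM (-0.03, adjusted p = 0.968). It fell in the connecting tubule, from 87.6, 115 and 96.9 CPM to 60.5, 53.6 and 71.0 CPM (-0.88, SE 0.17, adjusted p = 0.00121), and all 16 alternatives passed. The values were -0.74 in macrophages (adjusted p = 0.128), -0.71 in smooth muscle or pericytes (0.157) and -0.44 in the distal convoluted tubule (0.132, and 0.0451 without sham mouse 2), and whether these differ from the connecting tubule was not tested. In the connecting tubule 3 of the 4 genes tested were lower, in a fit where 23.6% of genes passed, 11.6% as lower. Gatm in the same cells was 60.7, 91.6 and 105 against 48.0, 40.8 and 78.1 CPM (-0.85, adjusted p = 0.0161), and it missed the threshold without sham mouse 3, DOCA-salt mouse 1 or DOCA-salt mouse 2 (-0.76 to -0.67, adjusted p = 0.0704 to 0.0855) and with at most 20% mitochondrial UMIs (-0.73, adjusted p = 0.0622). In these cells 5 of the 7 proximal tubule markers fell, with a median of -1.05, and their part in the Gatm and Ddah1 values was not tested. Sham Ddah1 in the connecting tubule was 30.1% of its proximal tubule level, against 7.60% for the summed proximal tubule markers, while Gatm stood at 6.94%.

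Genes that serve the same pathway were counted in whole kidneys. Of the 7 genes of tetrahydrobiopterin supply, 4 were lower and 0 higher, against 5.69% and 11.5% of all genes, with a median of -0.56 against -0.02 over all genes. In the same sums the proximal tubule markers had a median of -0.49, with 2 of 7 lower and 1 higher, and proximal tubule cells made up 62.4% to 66.1% of the cells of a sham mouse and 53.1% to 56.9% of those of a DOCA-salt mouse. These shares include a cluster with a median of 798 UMIs, uneven between the groups. It held 1935, 934 and 2245 cells in sham and 837, 1002 and 1388 in DOCA-salt mice. The part of the proximal tubule cells in this list was not tested. Among the 4 lower genes were Gchfr, the feedback regulator of the rate-limiting enzyme (66.4, 39.7 and 56.7 against 34.9, 32.2 and 25.9 CPM, log2 change -0.92), Pcbd1, which recycles the cofactor (-0.65), and Spr, sepiapterin reductase, the last step of synthesis (-0.56). Within smooth muscle or pericytes 1 of the 4 tested passed, Pcbd1 (-1.18, adjusted p = 0.0336, where 2.05% of genes passed). In those cells 3 of 6 proximal tubule markers were lower too, with a median of -1.09, and their sum went from 2366, 1174 and 1617 CPM to 478, 791 and 1201 CPM. Their part in the Pcbd1 value was not tested. In the endothelium 0 of 7 passed, where 7.92% of all genes did.

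Of the 16 genes of the cyclic GMP pathway, which include the cyclase subunits, 9 were higher and 1 lower, against 11.5% and 5.69% of all genes, with a median of 0.70. Prkg1, the kinase activated by cyclic GMP in smooth muscle, was 51.6, 65.1 and 56.3 CPM in sham and 112, 182 and 237 CPM in DOCA-salt mice (log2 change 1.49, adjusted p = 0.00435). The phosphodiesterase Pde3a (1.26) and the kinase substrate Vasp (0.65) were also higher, and the phosphodiesterase Pde1a was lower (-0.44). Within the endothelium 1 of 13 was lower and 1 higher, in the fit where 7.92% of genes passed, and the median of the 13 was -0.51 against -0.03 over all genes. Pde3a fell from 107, 171 and 129 to 56.5, 22.2 and 23.4 CPM (-2.03, adjusted p = 0.00484) and Vasp rose (0.77, adjusted p = 0.0107). Pde3a was among the leading genes of a Sox17-positive cluster led by Cytl1 and Gkn3, which had 36, 30 and 51 cells in sham and 20, 26 and 9 in DOCA-salt mice, and the part of the endothelium's makeup in its fall was not tested. In smooth muscle or pericytes 0 of 11 passed. The fibroblast, smooth muscle and endothelial markers were higher in whole kidneys (6 of 6, 3 of 7 and 7 of 10), and their part in this list was not tested.

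Of the 10 synthases and partners, Nos2, Nostrin and Dynll1 were higher and Nos1 lower, against 11.5% and 5.69% of all genes, with a median of -0.16. Dynll1, a dynein light chain that binds the neuronal synthase, was 186, 234 and 201 CPM in sham and 353, 303 and 398 CPM in DOCA-salt mice (log2 change 0.65, adjusted p = 0.014). In the endothelium 1 of 10 passed, near the 7.92% of all genes: Nos1ap, an adaptor of the neuronal synthase (0.91, adjusted p = 0.00777). Of the 8 tested genes that link citrulline, arginine and ornithine, Ass1 and Slc25a15, the mitochondrial ornithine carrier (-0.44, adjusted p = 0.0336), were lower and Aldh18a1 was higher. Of the 9 polyamine genes Smox was higher and Odc1 and Sms (-0.29, adjusted p = 0.0448) were lower. Odc1, the enzyme that makes putrescine from ornithine, was 442, 474 and 387 against 269, 241 and 273 CPM (-0.85, adjusted p = 0.00234), and it fell within the proximal tubule (-0.82), from 536 to 610 CPM in sham to 303 to 373 CPM. It was lower in smooth muscle or pericytes as well (-0.94), where the proximal tubule markers fell as given for Pcbd1, and their part was not tested.

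The remaining lists are read against the 11.5% of all genes that were higher and the 5.69% that were lower in whole kidneys. Of 8 genes of dimethylarginine metabolism 0 passed, of 6 creatine genes Ckb, a creatine kinase, was higher (0.77, adjusted p = 0.00284), and of 6 arginine transporters Slc7a2 was higher. Of 14 genes that respond to tissue dissociation, Hspb1 was higher (0.76, adjusted p = 0.0142). Within types that list gave 1 of 14 as lower in the endothelium, Egr1 (-0.82, where 3.52% of genes were lower), and 2 of 14 in the thick ascending limb, Ier3 (-0.97) and Ier2 (-0.72, where 0.871% were lower).

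By the correlation of log2(CPM + 1) of the sham means over the 21 cell types, the nearest genes to Gucy1a1 were Cd248 (Pearson's r = 0.976), Tmeff2 (0.975) and Gdf10 (0.97), and to Gucy1b1 Lrrc17 (0.967), Kcnb2 (0.958) and Myl9 (0.958). Nearest to Nos3 were Esm1 (0.942), Unc45b (0.911) and Fgd5 (0.911), and to Nos1 A330032P22Rik (0.952), Robo3 (0.92) and Gm10635 (0.917). Ass1 was nearest to Fbp1 (0.947), Acsm2 (0.945) and Akr1c21 (0.937), Asl to Lrrc19 (0.889), Kcnj15 (0.864) and Pdzk1 (0.858), and among the genes nearest to Gatm were Pdzk1 (0.89) and Dnase1 (0.888). Ddah1 was nearest to Cbs (0.879), Stard10 (0.863) and Evc (0.855). Arg2 had the loosest neighbors, Lcn2 (0.777), Pstpip2 (0.767) and Lrp8 (0.758). The types share the libraries and differ in depth, and rare types with few UMIs count as much as common ones.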

How the data were processed

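Kidney cells of 6 mice were profiled with 10x Genomics 3′ v3.1 chemistry. The deposited values are whole UMI counts per gene and barcode that the authors made with Cell Ranger (9.0.0 in the submitters' processing notes, 8.0.1 in the file headers) on GRCm39, for called cells and with no normalization. The annotation release and the strand setting are not given in the sources used here. Groups came from the labels. Barcodes with at least 170 genes, 500 UMIs, at most 50% mitochondrial and 5% hemoglobin UMIs were kept, and the top Scrublet scores were removed as doublets (0.8% per 1000 barcodes). Cells were clustered with scanpy 1.11.5 (2000 variable genes, 30 components, 15 neighbors, Leiden resolution 1) without batch integration, and clusters were named from marker lists. These rebuilt names may differ from the study's.

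Counts were summed per mouse and type, and tested with edgeR 4.0.16 (R 4.3.3, TMM, quasi-likelihood F test, Benjamini-Hochberg over all genes of a fit, threshold 0.05, at least 10 cells in each mouse). All adjusted p-values are from this tool unless another is named. The SE given is derived from the test, as the size of the log2 change divided by the square root of the F statistic. The intervals called 95% are a normal approximation from the log2 change and this SE, and can be narrower than the F test implies. For Ddah1 in whole kidneys the interval was -0.49 to -0.01, while the unadjusted p of the F test was 0.0758. Differences between types were tested with the mouse as a block. DESeq2 1.42.0, other scalings, filters and cell sets, and each mouse left out were tried as alternatives. The fits were checked on simulated counts with 200 genes changed. Of the calls, 9 of 184 were false in all cells and 9 of 198 in the thick ascending limb. In the proximal tubule 16 of 167 and in the endothelium 20 of 203 were false, more than the 0.05 aimed at. Of the 2-fold changes, 77%, 89%, 63% and 83% were recovered in these 4 fits, in that order. The members, gene lists and tests were chosen with earlier results of these data known. Named were the 9 genes, list genes past the threshold with at least 20 CPM and no overlap (up to 4 each way per list), and the 3 genes most alike. Some genes that this rule selects are not reported here. Nos2, Nostrin, Aldh18a1, Slc7a2 and Smox fall outside this rule and were named after their values were seen, to complete counts. A UMI count covers counting error only, and levels are not compared between genes.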

Additional observations from a re-analysis of the deposited data

Results flagged for a closer look

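Several changes differed between cell types or segments by a test of the difference itself. The change of Nos1 was higher in the endothelium than in the thick ascending limb by 1.65 (log2), and that of Arg2 higher in the thick ascending limb than in the thin limb by 0.64. In the comparison of the injured with the proximal tubule the change was higher in the injured tubule by 1.74 for Ass1, 1.07 for Gatm, 0.77 for Asl and 0.65 for Ddah1. Between the S2-like and the S1-like proximal tubule the difference was -0.38 for Ass1, 0.87 for Gatm and 1.23 for Gucy1a1. The last 2 pairs of cell types were chosen after seeing the data. In these, 12.7% (injured and proximal tubule) and 18.7% (segments) of all genes passed. Some differences missed the threshold when 1 mouse was left out (edgeR). They were Nos1 (adjusted p up to 0.182), Arg2 (0.128), Asl (0.0601), and Ass1 (0.0654) and Gucy1a1 (0.197) between segments. The other differences stayed past it.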

How the results depend on the processing

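Without fibroblasts, 0 of the 9 genes were higher in all cells instead of 2 (edgeR), and Gucy1b1 turned to -0.13. With no filter on low counts, 7 instead of 3 tests within cell types were higher, and 4 instead of 2 differences between cell types passed. Leaving out each mouse in turn gave 1 to 5 higher and 7 to 22 lower tests within types, against 3 and 13 with all mice, the 22 without sham mouse 2. It gave 0 to 2 differences between types, and 2 higher and 2 to 3 lower genes in all cells. In the parietal-like epithelium Arg2 turned to 0.37 without doublet removal and to 0.09 with clusters at resolution 2, where Gatm turned from -0.08 to 1.22, and the cause was not tested. Of the other values for single genes, over all alternatives, 1854 kept their side of the threshold. A further 86 fell short of it and 56 newly passed it. Among the 1854, some that missed the threshold changed sign. Examples are Ass1 in the parietal-like epithelium (-0.8, up to 0.47) and Gatm in all cells (-0.21, up to 0.22).

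Replicate numbers did not pair the mice: deviations of same-numbered mice correlated at -0.106, -0.76 and -0.255. With a replicate block, 2 genes were higher and 2 lower in all cells, and 2 tests were higher and 10 lower within types. The block ended the calls of Ass1 in the proximal tubule (-0.84, adjusted p = 0.154), the thick ascending limb (-1.12, 0.0666) and intercalated cells (-0.97, 0.0995) and Arg2 in the proximal tubule (1.29, 0.218), and of Ass1 in the Sox17-positive endothelium (-0.92, 0.141), type A intercalated cells (-1.01, 0.11) and the limb without macula densa-like cells (-1.14, 0.073), all edgeR. With 3 mice a group an exact permutation test could not go below p = 0.1. Levels of a few CPM in rare types rest on single UMIs, so changes there were not detectable at this depth.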
